A study of Mus musculus with 2 samples.

Results

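The 9 genes of MHC class I antigen presentation described here were read out of a table of 44713 genes counted in RNA of mouse pancreatic islets: the heavy chain genes H2-K1, H2-D1, H2-Q4, H2-T22 and H2-T23, the light chain gene B2m, and the peptide loading genes Tap1, Tap2 and Tapbp. The members were chosen by gene symbol, and all 9 of 9 were found. There were 2 libraries, 1 per group, both of the strain background C57BL/6. The db/db sample was labelled Lepr-/- and stands for mice without a working leptin receptor, a common model of obesity with diabetes. The db/m sample was labelled wild type and served as the control. The labels used here give no age, sex, treatment or number of animals for either library, although the series speaks of triplicates. A single library in each group leaves every difference without a replicate check. P-values are therefore left out, and each interval is a 95% interval for counting error alone.

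MHC class I molecules show peptides from inside the cell to CD8 T cells. A heavy chain pairs with beta-2 microglobulin in the endoplasmic reticulum. The TAP transporter, made of Tap1 and Tap2, brings peptides in from the cytosol, and tapasin, encoded by Tapbp, holds the empty molecule beside the transporter until a peptide fits. Most nucleated cells make these proteins at a low level, interferon raises them, and in autoimmune diabetes high class I on beta cells is a known feature of inflamed islets.

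The libraries held 18233695 counts (db/db) and 16271129 counts (db/m). Levels are given as CPM, the count divided by the library size and put on the usual CPM scale, after scaling of that size by the trimmed mean of M values (TMM), on which 1 count equals 0.0516 CPM in the db/db sample and 0.0653 CPM in the db/m sample. Lepr, the gene named in the genotype, had 3 counts in the db/db sample and 4 in the db/m sample, too few to check the label. The islet label was checked against markers: the share of 20 acinar cell genes was 61.1% (db/db) and 62.7% (db/m), whereas that of 7 islet hormone genes was 0.193% and 0.147%. The class I values thus describe RNA in which acinar transcripts made up most of the counts. In such bulk RNA, fewer cells of a type and less RNA per cell cannot be told apart.

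All 5 heavy chain members lie on chromosome 17 of GRCm38, together with Tap1, Tap2 and Tapbp, while B2m lies on chromosome 2. In RefSeq coordinates the span is 33919478 to 33929290 for Tapbp, 33996012 to 34000619 for H2-K1, 34187556 to 34197225 for Tap1, 34204479 to 34216321 for Tap2, 35263094 to 35267497 for H2-D1, 35379617 to 35384674 for H2-Q4, 36029977 to 36032701 for H2-T23 and 36037128 to 36042742 for H2-T22, and B2m spans 122147687 to 122153082. The strand used in counting is not stated, and 4 members overlap another annotated gene. Patl2 over B2m and Gm19412 over Tapbp had 0 counts in both samples, and A930015D03Rik over H2-T22 and H2-T23 had 3 counts in db/db and 0 in db/m. The windows of H2-K1, H2-D1 and H2-Q4 share kB-type and interferon response letters. Their promoters and that of B2m are shown, as these genes include the 3 members whose ratio intervals did not include 1. Each is the RefSeq window of 250 bases before to 50 after the start of the gene (GRCm38.p6), at chr17:34000298-34000597 on the minus strand for H2-K1 (the outermost start in the promoter table, although the annotated gene reaches further upstream), chr17:35262844-35263143 on the plus strand for H2-D1, chr17:35379367-35379666 on the plus strand for H2-Q4 and chr2:122147437-122147736 on the plus strand for B2m. Capitals mark matches, on either strand, to GGNNTTCCC (a kB-type site), GAANNGAAA or GAAANNGAA (interferon response letters), TGACG (the core of the X2 box) and CCAAT (the Y box).
H2-K1: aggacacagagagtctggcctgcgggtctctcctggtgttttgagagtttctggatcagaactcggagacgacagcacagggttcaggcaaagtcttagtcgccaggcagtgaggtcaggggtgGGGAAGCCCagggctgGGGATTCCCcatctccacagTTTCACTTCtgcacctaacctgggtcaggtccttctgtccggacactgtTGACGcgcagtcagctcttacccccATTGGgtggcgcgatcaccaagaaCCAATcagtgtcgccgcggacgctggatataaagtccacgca
H2-D1: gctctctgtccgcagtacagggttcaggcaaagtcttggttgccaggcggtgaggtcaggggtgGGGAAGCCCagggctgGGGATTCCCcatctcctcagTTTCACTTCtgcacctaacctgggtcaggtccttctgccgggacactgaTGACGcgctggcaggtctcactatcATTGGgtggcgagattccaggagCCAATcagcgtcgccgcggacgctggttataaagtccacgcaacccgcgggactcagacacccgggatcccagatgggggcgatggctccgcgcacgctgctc
H2-Q4: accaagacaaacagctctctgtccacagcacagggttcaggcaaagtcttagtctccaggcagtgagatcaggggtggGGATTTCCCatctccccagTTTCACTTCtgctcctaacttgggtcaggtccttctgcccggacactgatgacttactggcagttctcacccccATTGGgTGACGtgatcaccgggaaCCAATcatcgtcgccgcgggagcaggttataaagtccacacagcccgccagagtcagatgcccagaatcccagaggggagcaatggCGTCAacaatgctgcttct
B2m: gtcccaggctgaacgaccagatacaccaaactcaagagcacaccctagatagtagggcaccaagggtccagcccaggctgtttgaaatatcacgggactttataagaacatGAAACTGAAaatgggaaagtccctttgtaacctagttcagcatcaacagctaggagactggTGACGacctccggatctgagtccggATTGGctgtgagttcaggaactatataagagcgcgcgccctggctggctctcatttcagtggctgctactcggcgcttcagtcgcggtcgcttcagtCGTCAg

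The letters GGNNTTCCC stood in the windows of H2-K1, H2-D1 and H2-Q4 and in 5.72% of 27025 gene promoters of this length. The same 3 windows held GAANNGAAA, found in 7.56% of promoters, and H2-K1 and H2-D1 held the same matches in the same order. B2m, H2-T22 and H2-T23 held the variant GAAANNGAA instead, which 8.58% of promoters hold. TGACG was in 6 of the 8 member windows in the table and in 20.9% of promoters, and CCAAT was in all 8 and in 38.0% of promoters. In H2-K1 and H2-D1 the TGACG match stood before the CCAAT matches. In H2-Q4 the TGACG matches began at -73 and 31, after a CCAAT match (ATTGG) at -79. The capitals in H2-Q4 therefore do not mark TGACG at the place it has in H2-K1 and H2-D1. The motifs may overlap each other, a match is a description of letters only, and the letters say nothing about binding in these islets.

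The series sets islets of db/db mice against those of db/m controls, and the comparison here asked how far class I presentation genes differ. None of the 9 genes differed by 2-fold or more beyond counting error, the ratios of H2-D1 (1.15) and H2-K1 (1.47) had intervals above 1, and that of B2m (0.637) had one below 1. A gene was called only where its ratio was at least 2-fold, its interval excluded 1 and its mean unscaled level was at least 1 CPM, and by this rule 0 members were higher and 0 lower, against a background of 3.83% of 10300 compared genes called higher and 4.04% called lower. At this background few calls would be met among 9 genes of any kind. Of the 9, 7 reached the level filter. H2-T23 missed it narrowly with a mean of 0.995 CPM and H2-Q4 stood at 0.472 CPM, while Tap1, the lowest inside, had 1.43 CPM. The median log2 ratio of all 9 members was 0.15, beside 0.02 for the compared genes, with 6 ratios above 1 and 3 below.

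Among the heavy chains, H2-D1 encodes a classical class I molecule found on most cells. It had 758 counts in the db/db sample and 523 in the db/m sample, or 39.1 and 34.2 CPM. The ratio of db/db over db/m was 1.15 (1.02 to 1.28), so the db/db sample was slightly higher and a 2-fold difference lay outside the interval. H2-K1 encodes the other classical heavy chain of this strain. It had 93 counts in the db/db sample and 50 in the db/m sample, or 4.80 and 3.27 CPM, a ratio of 1.47 (1.03 to 2.12). Both classical genes had a higher level in the db/db sample by an interval above 1, as did 20.7% of all compared genes, and neither reached 2-fold. Within each library, H2-K1 counts were 12.3% of H2-D1 counts (db/db) and 9.56% (db/m). That relation differed 1.28-fold between libraries, with an interval of 0.883 to 1.88 that includes no difference.

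Among the non-classical heavy chains, H2-T22, whose product is recognised directly by some gamma delta T cells, had 71 counts in the db/db sample and 53 in the db/m sample, or 3.66 and 3.46 CPM. The ratio of 1.06 (0.731 to 1.54) covered no difference and left out a 2-fold one. H2-T23 encodes Qa-1, which shows leader peptides of other class I molecules to receptors of natural killer cells. It had 15 counts against 19, or 0.774 and 1.24 CPM, with a ratio of 0.624 (0.295 to 1.30). H2-Q4, a gene of the Qa region, had 6 counts against 10, or 0.310 and 0.653 CPM, with a ratio of 0.474 (0.142 to 1.44). For H2-T23 and H2-Q4 no difference was detectable at this depth, and the intervals also hold a fold of more than 2 downward.

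**Figure D1:**
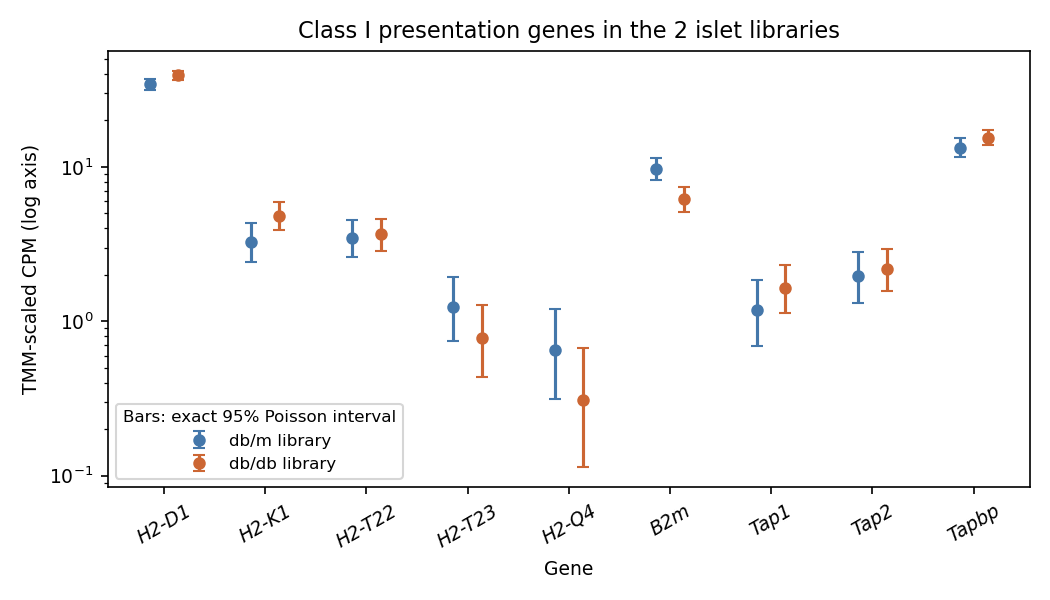
TMM-scaled CPM of the 9 genes (log axis) in the db/m and db/db libraries, with exact 95% Poisson intervals for counting error. H2-D1 stands at 34.2 and 39.1 CPM and H2-Q4 at 0.653 and 0.310 CPM; the values are not corrected for transcript length, so only the 2 points of one gene can be compared.

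Heavy chain genes are similar in sequence, how reads that match several of them were counted is not stated, and the value of any single one is uncertain. Their sum does not depend on how reads were divided among the 5. It was 943 counts in the db/db sample and 655 in the db/m sample, or 48.7 and 42.8 CPM, a ratio of 1.14 (1.03 to 1.26). H2-D1 made up 80.4% of that sum in the db/db sample and 79.8% in the db/m sample, so the sum mainly follows H2-D1. H2-K1 took 9.86% and 7.63%, H2-T22 7.53% and 8.09%, H2-T23 1.59% and 2.90%, and H2-Q4 0.636% and 1.53%. Adding the 29 other class I heavy chain genes of the table gave 1019 and 705 counts and the same ratio to 2 decimals, 1.14 (1.04 to 1.26).

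Those 29 other genes added little. In both libraries 17 had no count, and only H2-Q1 passed the level filter, with 28 counts in the db/db sample and 17 in the db/m sample and a ratio of 1.30 (0.688 to 2.53). H2-Q6 had 17 against 7 counts, H2-T24 13 against 4, and Gm8909 8 in each. Together they had 76 counts in the db/db sample and 50 in the db/m sample, with a ratio of 1.20 (0.830 to 1.75) that includes no difference.

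B2m, the light chain that pairs with class I heavy chains, lay in the other direction. It had 120 counts in the db/db sample and 149 in the db/m sample, or 6.19 and 9.73 CPM. The db/db sample was 1.57-fold lower (1.23 to 2.02), short of the 2-fold limit. An interval below 1 was found for 18.2% of compared genes, and at a lower fold limit of 1.5, at which B2m would be called lower, so would 8.87%. The B2m interval stayed below 1 and those of H2-D1 and H2-K1 above 1 under all 4 scalings tried.

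Scaling does not enter when B2m is set against the heavy chains of its own library, a comparison chosen after the values were seen. B2m counts were 12.7% of the summed heavy chain counts in the db/db sample and 22.7% in the db/m sample. This proportion was 1.79-fold lower in the db/db sample (1.37 to 2.34, exact conditional interval). Against H2-D1 alone it was 1.80-fold lower (1.37 to 2.37), and against H2-K1 alone 2.31-fold lower (1.49 to 3.60). These proportions compare counts of transcripts of different length, so their size within a library has no meaning and only the change between libraries does. Exon lengths were not in the tables used, and levels of different genes are not ranked.

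**Figure D2:**
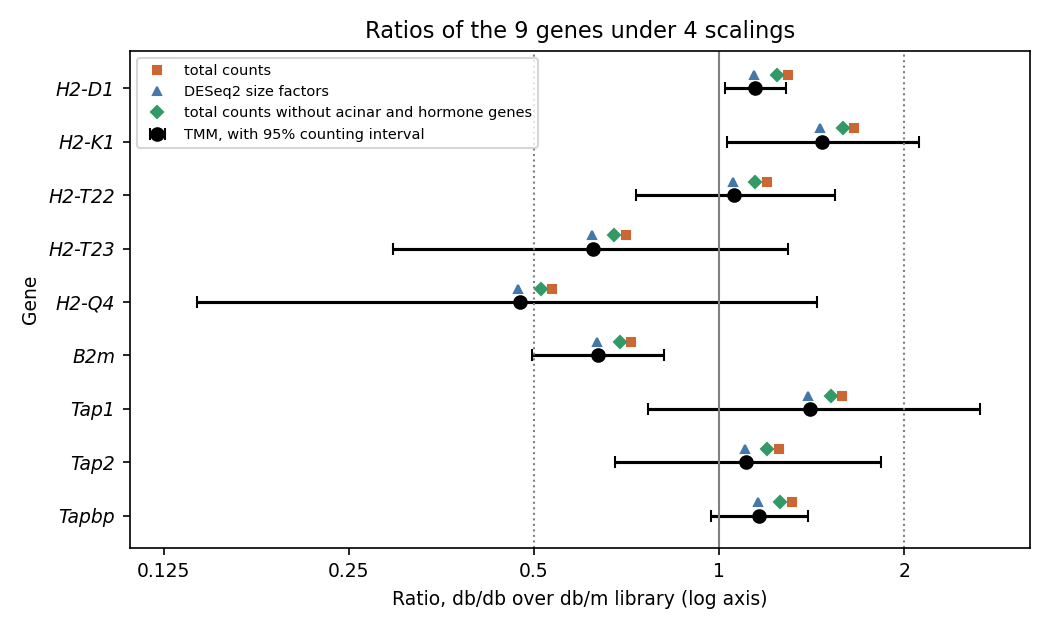
Ratio of the db/db over the db/m sample (log axis) for each of the 9 genes, with the 95% counting interval under TMM scaling and the ratios under 3 other scalings; dotted lines mark 2-fold in either direction. Under TMM, B2m lies at 0.637 with its interval below 1, H2-D1 at 1.15 and H2-K1 at 1.47 with intervals above 1, and the other 6 intervals include 1.

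The peptide transporter genes had low counts. Tap1 had 32 counts in the db/db sample and 18 in the db/m sample, or 1.65 and 1.18 CPM, and a ratio of 1.41 (0.765 to 2.66). Tap2 had 42 counts against 30, or 2.17 and 1.96 CPM, and a ratio of 1.11 (0.676 to 1.83). Neither differed between the libraries beyond counting error, and for Tap1 a 2-fold higher level is still within the interval. Tap1 counts were 76.2% of Tap2 counts in the db/db sample and 60.0% in the db/m sample, and the relation of these 2 subunits had a ratio between libraries of 1.27 (0.568 to 2.87).

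Tapbp, which encodes the loading chaperone tapasin, had 300 counts in the db/db sample and 204 in the db/m sample, or 15.5 and 13.3 CPM. Its ratio was 1.16 (0.970 to 1.40). With total counts as library size the ratio was 1.31 (1.09 to 1.58), and without acinar and hormone genes in the total it was 1.26 (1.05 to 1.51), so whether its interval includes 1 depended on the scaling. Set against the summed heavy chains of the same library, Tapbp stood at 31.8% in the db/db sample and 31.1% in the db/m sample, a relation with a ratio of 1.02 (0.829 to 1.26). Tap1 and Tap2 together stood at 7.85% and 7.33% of the heavy chain counts, a ratio of 1.07 (0.724 to 1.60). In 4 of the 9 genes, H2-D1, H2-T22, Tap2 and Tapbp, the interval between libraries lay wholly within 2-fold in both directions, as did those of 71.7% of all compared genes.

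**Figure D3:**
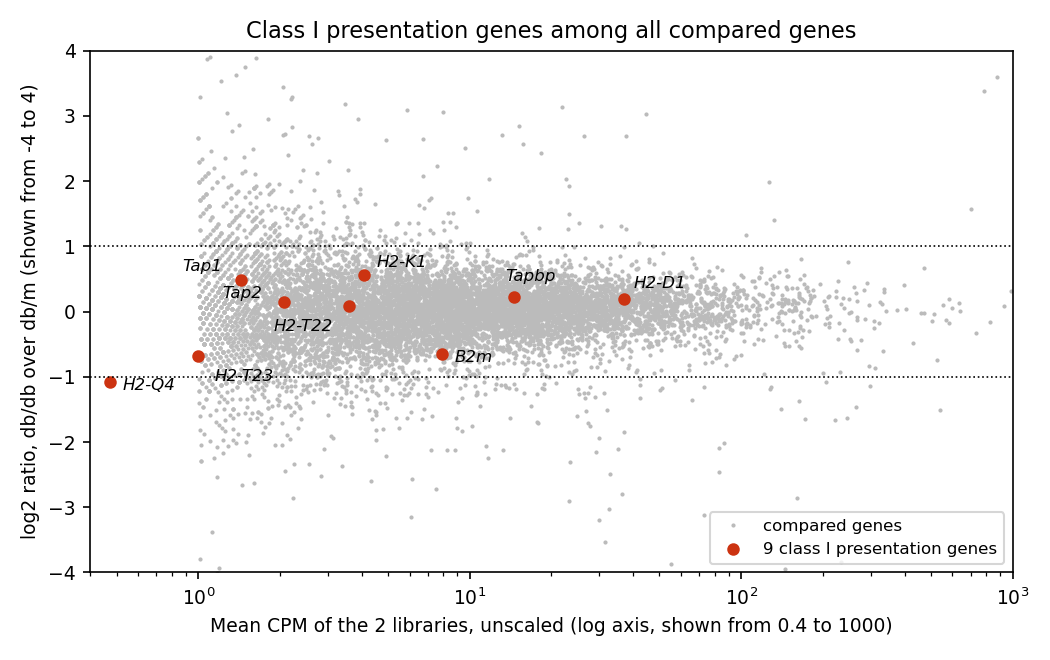
log2 ratio of db/db over db/m against the mean unscaled CPM (log axis) for the 9 genes (red) and the 10300 compared genes (grey); genes beyond the plotted ranges are not drawn. Of the 9 genes, only H2-Q4, below the level filter, lies past a dotted line of 2-fold, at -1.08.

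Other parts of the class I pathway were taken from lists chosen by known function. The calnexin, calreticulin and ERp57 genes serve the folding and loading of heavy chains and of many other proteins. Canx had a ratio of 1.30 (1.24 to 1.37), Calr 1.16 (1.10 to 1.22) and Pdia3 1.44 (1.35 to 1.55). In this list of loading partners and peptide trimming enzymes, 0 of 14 compared genes were called in either direction. Among all compared genes, 3.83% were called higher and 4.04% lower, so few calls would be met in a list this short. In the list, the intervals of 5 genes lay above 1 and that of 1 below, against 20.7% and 18.2% of all compared genes. The median log2 ratio of the list was 0.03. Erap1, which trims peptides in the endoplasmic reticulum, had 140 counts in the db/db sample and 108 in the db/m sample, at a ratio of 1.02 (0.791 to 1.33). Tapbpl, a relative of tapasin that edits peptides outside the loading complex, stood at 1.09 (0.674 to 1.77).

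The immunoproteasome replaces catalytic subunits of the standard proteasome and cuts peptides suited to class I. Its subunit genes Psmb8 and Psmb9 were scarcely read, with 6 counts against 5 and 2 against 0. Psmb9 is the neighbour of Tap1, and the starts of both genes fall within the Tap1 window of 300 bases. Psmb10, the third subunit, had 457 counts in the db/db sample and 232 in the db/m sample, a ratio of 1.56 (1.33 to 1.83) below the 2-fold limit. The activator genes Psme1 and Psme2 stood at 0.875 (0.600 to 1.28) and 1.07 (0.547 to 2.13). The standard subunits Psmb5, Psmb6 and Psmb7, with ratios of 1.07, 1.14 and 0.984, all had intervals including 1. Of Psmb10 and the 2 activator genes, the 3 that were compared, and of 4 standard counterparts, 0 were called. The shares called among all compared genes were 3.83% higher and 4.04% lower.

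Transcription factors that act on class I promoters gave 0 calls higher or lower among 12 compared genes, against 3.83% and 4.04% of all compared genes. Few calls would be met in a list this short. The median log2 ratio of the list was -0.16, or 0.01 with total counts. Nlrc5, the class I transactivator, had 24 counts in the db/db sample and 9 in the db/m sample. Its ratio of 2.11 had an interval of 0.946 to 5.15, and its mean was under the level filter. Atf1 stood at 1.52 (1.30 to 1.78), Nfyc, a subunit of the factor that binds CCAAT, at 1.42 (1.05 to 1.94), and Rela, a subunit of NF-kB, at 0.663 (0.550 to 0.799). Irf1, an interferon-induced activator of class I genes, had 35 counts against 41 and a ratio of 0.675 (0.417 to 1.09).

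Genes of the interferon response did not lie above the control library as a group. Of 5 listed interferon genes, all had 0 counts in both libraries. At the floor of 3 counts this allows up to 0.155 CPM in the db/db sample and 0.196 CPM in the db/m sample. In the list of interferon receptors and signalling, 1 of 9 compared genes was lower and 0 were higher, against 4.04% and 3.83% of all compared genes. The median log2 ratio was -0.46, or -0.29 with total counts. The lower gene was Socs3, a feedback inhibitor of cytokine signalling, with 37 counts in the db/db sample and 114 in the db/m sample (3.90-fold lower, 2.67 to 5.81). With an interval below 1 but a ratio short of the 2-fold limit were Ifngr1 at 0.608 (0.427 to 0.862), Ifngr2 at 0.717 (0.560 to 0.918), Jak1 at 0.645 (0.597 to 0.697) and Jak2 at 0.726 (0.594 to 0.887). These are TMM intervals, and one below 1 was found for 18.2% of compared genes. With total counts, which raised every log2 ratio by 0.18, those of Ifngr2 and Jak2 would include no difference. The pair Ifngr1 and Ifngr2 forms the receptor for interferon gamma, which signals through Jak1 and Jak2.

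Of 51 interferon-stimulated genes in the table, 14 reached the level filter. Among these 2 were lower and 0 were higher, against 4.04% and 3.83% of all compared genes. The median log2 ratio was -0.38, or -0.20 with total counts. Parp14 had 22 counts in the db/db sample and 48 in the db/m sample (2.76-fold lower, 1.63 to 4.80), and Parp9 had 38 against 75 (2.50-fold lower, 1.67 to 3.79). Lgals3bp had the highest ratio of the compared genes in that list, 1.54 (1.26 to 1.89). The list summed to 1892 counts in the db/db sample and 1697 in the db/m sample, a ratio of 0.881 (0.825 to 0.941) under TMM. As a share of all counts it stood at 0.0104% in both samples, so this difference depended on the scaling. The heavy chain sum had a ratio of 1.14 under TMM and 1.28 with total counts.

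**Figure D4:**
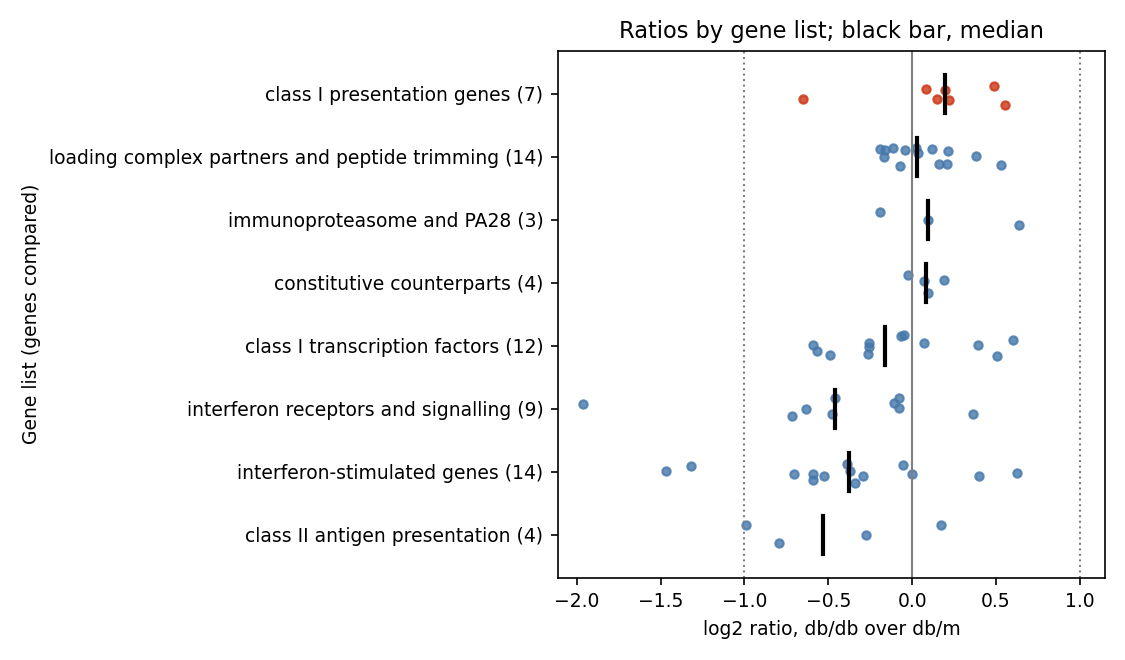
log2 ratio of db/db over db/m for the compared genes of each list (points) with the median (black bar); the number of compared genes is in parentheses and dotted lines mark 2-fold. The compared class I presentation genes spread from -0.65 (B2m) to 0.56 (H2-K1), and the lowest points in the 8 lists drawn are Socs3 at -1.96, Parp14 at -1.46 and Parp9 at -1.32.

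Class II genes, which show peptides from outside the cell and are mainly expressed by leukocytes, gave 0 calls among 4 compared genes. Of all compared genes, 3.83% were called higher and 4.04% lower, so 0 calls among 4 genes carries little information. Cd74, the invariant chain, had 70 counts in the db/db sample and 96 in the db/m sample, a ratio of 0.576 (0.417 to 0.792). H2-Ab1 had 21 against 33, a ratio of 0.503 (0.277 to 0.896). The other 2 intervals included 1, with Ifi30 at 364 against 255 counts, a ratio of 1.13 (0.959 to 1.33), and H2-Aa at 22 against 21, a ratio of 0.828 (0.434 to 1.58). All 13 listed class II genes summed to a ratio of 0.928 (0.816 to 1.05), which includes no difference. Ifi30 supplied 364 of the 527 counts of this sum in the db/db sample and 255 of 449 in the db/m sample. The sum therefore mainly follows Ifi30 and does not describe Cd74 or H2-Ab1. Leukocytes also express class I strongly, so their markers are given beside the class I values. The 18 leukocyte markers summed to 80 counts (4.13 CPM) in the db/db sample and 99 (6.47 CPM) in the db/m sample. The ratio of this sum was 0.639 (0.470 to 0.866), with an interval below 1. Ptprc, the 1 compared gene, had 25 and 27 counts. Below the level filter, Cd79b had 3 counts against 12 and Ms4a1 0 against 9, both with intervals below 1. Others had more counts in the db/db sample within counting error, such as Cd53 at 11 against 6. Nkg7, Klrb1c and Gzmb were at 0 in both libraries, and the T cell genes Cd3d, Cd3e and Cd3g had at most 1 count each. The 17 macrophage and dendritic cell markers summed to 161 counts (8.31 CPM) against 86 (5.62 CPM), with Lyz2, the 1 compared gene, called higher at 2.28-fold (1.52 to 3.49). Without Lyz2, a setting chosen after the values were seen, the sum was 66 counts (3.41 CPM) against 53 (3.46 CPM), a ratio of 0.984 (0.675 to 1.44), so the difference of the list rests on Lyz2. Single markers went both ways below the level filter, with Csf1r at 18 against 3 counts, Cd68 at 2 against 12 and Itgax at 0 against 7. Fcgr1, Tyrobp and Aif1 were at 0 in both.

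Endothelial markers summed to 9.14 CPM in the db/db sample and 12.3 CPM in the db/m sample over 10 genes. Of the 4 compared, Plvap and Kdr were called lower (2.72-fold and 2.05-fold), against 4.04% of all compared genes. Stellate cell and fibroblast markers summed to 9.91 and 8.95 CPM over 9 genes, with Acta2, 1 of 4 compared, called lower (2.80-fold). Below the level filter, Col1a1 had 30 counts against 5, a ratio of 4.74 (1.82 to 15.7), and Pdgfra 11 against 1, a ratio of 8.69 (1.26 to 374). Duct markers summed to 223 and 319 CPM over 9 genes, with 0 calls among 7 compared. The 10 beta cell markers summed to 1558 CPM in both libraries, of which Ins2 made up 1081 CPM (db/db) and 1029 CPM (db/m). Of these 10, 6 were called lower, against 4.04% of all compared genes. Of the 7 islet hormone genes, 4 were called higher, against 3.83% of all compared genes, and Ins1 was called lower (2.11-fold). The higher ones were Gcg (3.99-fold), Sst (8.79-fold), Ppy (6.44-fold) and Pyy (5.72-fold), so the mix of islet hormone transcripts differed between the 2 libraries. The part of any of these cell types in the class I ratios was not tested.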

How the data were processed

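Per the labels' protocols, islets were freed with collagenase, purified on a density gradient and used directly for total RNA, from which ribosomal RNA was removed. HISAT2 2.0.4 and the builds mm10 and GRCm38 are named per the submitters' processing notes. The authors deposited whole-number counts per gene. Which program counted the reads, on which annotation and strand, and how reads matching several genes were handled, was not stated.

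TMM factors came from edgeR 4.0.16 (R 4.3.3), with DESeq2 1.42.0 size factors as an alternative. Ratios carry exact Clopper-Pearson 95% intervals from the db/db share of both counts (Python 3.11.15, scipy 1.17.1). PCR copies are not independent molecules, so intervals cover counting error only. The call rule was a fold of 2, a mean of 1 CPM and an interval excluding 1. Double ratios have exact conditional intervals. The code was tested on simulated data. Of 268 list entries, 264 were found in the table, 3 of them by an older symbol. Positions and promoters come from RefSeq, matched by symbol (8 of 9 promoters). All 9 members were named, and other genes by list: called genes, the largest differences, and some picked once their values were known. The members and lists were chosen with earlier results of these data known. Alternatives were other scalings, fold limits, filters and an interval at the Bonferroni level. Levels per exon length, planned at first, were left out because no exon lengths were at hand.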

Additional observations from a re-analysis of the deposited data

How the results depend on the processing

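Of 68 alternative values for 21 results, 65 stayed within their limits, 3 moved and 0 reversed beyond them. The limits were set by the counting interval, the spread of the list or a 1.5-fold change of a count. Within its limit, the median log2 ratio of the class I transcription factors changed sign, from -0.16 with TMM to 0.01 with total counts. With total counts as library size, which raised every log2 ratio by 0.18, the ratio of the summed heavy chains was 1.28 and that of H2-D1 was 1.29, each just above its interval under TMM. With a fold limit of 1.5, 1 member was lower (B2m), against 8.87% of all compared genes, and 0 were higher. No member was called at 2-fold under any of the 4 scalings or without a level filter. The limit of 4, the Bonferroni level and the filter of 10 CPM also gave no call. These 3 settings are stricter than the main rule and could add none, so they carry no information, although their values count among the 65. Among all genes, 48.7% of calls were higher with TMM and 67.1% with total counts. The median log2 ratio of the members ranged from 0.14 with DESeq2 size factors to 0.32 with total counts, beside 0.02 and 0.20 for all compared genes. No paired analysis was possible because each group had 1 library, and for the same reason no replicate could be left out. Depth limits H2-Q4, H2-T23 and Tap1 among the members, whose intervals hold both no difference and 2-fold.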

Other observations

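Of the other genes on chromosome 17 between Tapbp and H2-T22 (33919478 to 36042742 in GRCm38), an interval chosen after the values were seen, 60 were compared. In the db/db sample 1 of them was higher (Col11a2, 31 counts against 11) and 7 were lower, against 3.83% and 4.04% of all compared genes. The median log2 ratio of the 60 was 0.05. The complement genes C4b and C4a, near-identical neighbours whose single values are uncertain, had 35 counts against 463 and 2 against 35. The other 5 lower genes were Hspa1a (87 counts against 2463), Hspa1b (164 against 4613), Gm8696 (0 against 246), 1110038B12Rik (36 against 168) and Snord52 (2 against 31). Hspa1a and Hspa1b had nearly the same ratio (0.0279 and 0.0281). Whether the 7 lower genes vary separately was not tested, so their number is not read as an excess of this region.

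Among class I-like proteins, Azgp1, a secreted zinc-binding glycoprotein, had 350 counts in the db/db sample and 200 in the db/m sample, a ratio of 1.38 (1.16 to 1.65). Mr1, which shows vitamin metabolites to MAIT cells, had 41 against 23, a ratio of 1.41 (0.826 to 2.46). Of the 2 genes compared in that list, 0 were called, against 3.83% called higher and 4.04% called lower among all compared genes.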
